A study of Sus scrofa with 4 samples.

Results

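Elastic fibres give tissues their recoil, and 9 genes of these fibres were followed through the growing pig testis: ELN, FBN1, MFAP2, MFAP4, MFAP5, FBLN1, FBLN5, LTBP1 and POSTN. The genes were chosen by name, as the features whose symbol in the deposited feature lists is one of these 9. Each symbol was found once among 31908 features, of which 16508 carry a symbol.

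An elastic fibre is built from a core of elastin and a sheath of microfibrils. Fibrillin makes the microfibril and carries smaller microfibril-associated proteins, fibulins help to lay elastin on it and lysyl oxidases cross-link the elastin. Latent transforming growth factor beta (TGF-beta) is held on the same microfibrils by its binding proteins. In the testis, the walls of the seminiferous tubules and of blood vessels and the interstitial connective tissue are the places where such fibres are known.

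The study profiled cell suspensions of Sus scrofa testis at 7, 30, 60 and 90 days of age with droplet-based 3′ counting (10x Chromium), in 1 library per age, to describe how the cells around the germ cells develop up to puberty. The labels name no breed, treatment, genotype or number of animals, so age and library cannot be told apart, and no test between ages was possible. The labels give 86453 captured cells, the files hold 69602 barcodes, 55798 passed the filters and 48923 were used after removal of doublets (13073, 15504, 8533 and 11813 in order of age). Total counts of unique molecular identifiers (UMIs) lay between 45717373 and 96133720 per library, and the median cell used held 5100, 2898, 2745 and 2549 UMIs in order of age. The 60-day library stood apart: 28.8% of its cells were removed as doublets against 5.59% to 10.3% in the others, and 2853 of its remaining cells formed a shallow cluster that was given no name. Its removed cells held a median of 1662 UMIs, fewer than the cells used. At 7, 30 and 90 days the removed cells held 9251, 5727 and 5770.5, more than the cells used. Whether the 60-day cells removed were doublets was not tested. Pairs of libraries shared 78 to 115 barcodes, at most 0.657% of the smaller library. Below, a level is the gene's UMIs per 1000000 UMIs (CPM) summed over all cells of a class in a library, and the range in brackets is its exact Poisson 95% interval. Shares have exact Clopper-Pearson 95% intervals, and all intervals cover counting error only.

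Cell classes were rebuilt from clusters that were made without the 9 genes and their companions, and were named from marker genes. The main classes for these genes were myoid-like cells, named after the contractile cells of the tubule wall (3148, 876 and 654 cells at 30, 60 and 90 days, with only 18 at 7 days), stromal-like cells (3476, 2953, 1049 and 2157) and pericyte or vascular smooth muscle-like cells (181, 256, 56 and 562). The 12 peritubular myoid markers summed to 6877 CPM at 30 days, 6100.2 at 60 and 28049 at 90 in the myoid-like class, with none at 0. ACTA2, the actin of smooth muscle, stood at 2196, 2164 and 9156 CPM there. MYH11, the heavy chain of smooth muscle myosin, stood at 492, 378 and 4872 CPM, against 5603 in the vascular smooth muscle-like cells of 30 days, so the younger myoid-like cells were low for it. The 11 interstitial stromal markers summed to 14981, 21284 and 10401 CPM in the same cells, and 1 cluster held nearly all of the 30-day and 60-day cells while another held 649 of the 654 at 90 days. A comparison of ages within this class is therefore also one between clusters, and the earlier cluster scored higher for stromal than for myoid markers. The stromal-like class likewise was mostly a different cluster at each age. By their own marker counts 293 cells of 7 days would be myoid, of which 3 were in the myoid-like class and 190 in the stromal-like class, so the 7-day stromal-like levels include such cells. Likewise 361 cells of 7 days would be pericyte or vascular smooth muscle, with 140 in that class and 218 in the stromal-like class. At 30 days 486 cells would be, with 182 in that class and 184 in the stromal-like class. At 90 days all 8 spermatid markers were found in these somatic classes, summing to 2843 CPM in myoid-like, 3087 in stromal-like and 3047 in pericyte or vascular smooth muscle-like cells, against at most 1.16 CPM in each of them at the earlier ages. By their own marker counts 914 of the 2157 stromal-like cells of 90 days would be germ and 877 stromal. Ratios that use such counts rest on 881 stromal cells at that age. The 10 Sertoli markers summed to 480.2, 478 and 767 CPM in myoid-like cells in order of age. Lymphocytes are no source of elastic fibres, so the T or NK-like cells are given beside the results as a measure of free RNA, whose part in the results was not tested further than by the subtraction described with the alternatives.

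ELN (ENSSSCG00000025858; chromosome 3, 11214194 to 11245891 on Sscrofa11.1) encodes tropoelastin, the monomer of the elastic core. Its level in the myoid-like class was highest by far in the oldest library. Myoid-like cells held 7.18 CPM (5.35 to 9.44) at 30 days, 9.29 (5.96 to 13.8) at 60 and 126 (109 to 146) at 90. The 2 younger libraries overlapped in their intervals and the 90-day library stood clear of both, 17.6-fold (12.8 to 24.4) above 30 days and 13.6-fold (8.85 to 21.7) above 60. Stromal-like cells followed at a lower level, with 2.86 CPM (2.0 to 3.96), 3.12 (1.93 to 4.78), 4.99 (2.79 to 8.24) and 18.4 (14.8 to 22.5) in order of age. Here too the first 3 libraries overlapped and the fourth was above them, 6.43-fold (4.34 to 9.73) over 7 days.

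The difference in myoid-like ELN was present in the share of cells as well as in the sum. When cells were given to classes by their own marker counts in place of clusters, the log2 ratio of 90 to 30 days was 3.21 in place of 4.14. At least 1 ELN UMI was found in 1.59% of myoid-like cells at 30 days (1.18 to 2.09), 2.63% at 60 (1.67 to 3.91) and 24.3% at 90 (21.1 to 27.8). With every cell thinned to 2000 UMIs and 1222, 153 and 245 shallower cells left out, the shares were 1.45%, 1.94% and 23.2%. Spreading the 188 UMIs of the 90-day cells evenly over them by depth would give 24.6%, close to the share measured. None of 209, 230, 222 and 634 T or NK-like cells held an ELN UMI, which allows levels of up to 3.40, 5.96, 5.88 and 3.25 CPM (3 UMIs of the class total), or 4.19, 7.33, 7.23 and 4.0 CPM by the upper end of the exact interval. The median T or NK-like cell held 2921, 1400.5, 1566.5 and 1269.5 UMIs, against 2136, 2845 and 2208.5 in the myoid-like cells of 30, 60 and 90 days. Before 60 days the highest level belonged to lymphatic endothelial-like cells, with 27.9 CPM (15.9 to 45.3) at 7 days and 15.4 (6.20 to 31.8) at 30, although their interval met that of pericyte or vascular smooth muscle-like cells at both ages. At 90 days lymphatic endothelial-like cells held 29.3 CPM (17.1 to 46.9), below the myoid-like cells. ELN was scarce throughout, with 69, 94, 60 and 335 UMIs per library.

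FBN1 (ENSSSCG00000004658; chromosome 1, 123102011 to 123359649) encodes fibrillin-1, the backbone of the microfibril. Its highest level was in stromal-like cells at every age. Stromal-like cells held 793 CPM (777 to 808), 1095 (1070 to 1121), 1261 (1221 to 1302) and 838 (813 to 864) at 7, 30, 60 and 90 days. The 4 intervals were separate and the middle ages were highest, yet 90 and 7 days differed by only 1.06-fold (1.02 to 1.10). Myoid-like cells held 202 CPM (191 to 212), 228 (210 to 247) and 149 (130 to 170) at 30, 60 and 90 days, which was 5.43-fold, 5.54-fold and 5.63-fold below stromal-like cells of the same library. Stromal-like cells held 80.0%, 71.4%, 68.9% and 81.7% of the FBN1 UMIs of their library in order of age. Pericyte-like cells came next, with 199 CPM (159.6 to 245) at 7 days, 345 (279 to 422) at 30 and 206 (172 to 245) at 90. The level in T or NK-like cells was 5.42 to 15.7 CPM.

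MFAP2 (ENSSSCG00000003479; chromosome 6, 75607515 to 75615680) encodes a small glycoprotein bound to fibrillin. It was highest in young myoid-like cells. Those cells held 521 CPM (504 to 538) at 30 days, 548 (519.8 to 577) at 60 and 232 (208 to 258) at 90, a level 2.24-fold lower (2.01 to 2.51) than at 30 days. Stromal-like cells held 140 CPM (133 to 146), 276 (263 to 289), 285 (266 to 304) and 272 (258 to 287). The 3 older stromal libraries lay together and above the 7-day one, so that myoid-like cells were 1.89-fold (1.79 to 2.0) above stromal-like cells at 30 days and 0.854-fold (0.756 to 0.961) of them at 90. Pericyte-like cells were at or near 0, with 2.26, 0 and 1.60 CPM at 7, 30 and 90 days. In Sertoli-like cells MFAP2 was low, at 20.4 CPM (18.9 to 21.9) in the main cluster of 7 days, 5.30 (4.45 to 6.26) in that of 30, 7.94 (6.58 to 9.50) in that of 60 and 1.72 (1.09 to 2.58) in that of 90, with 60 days above 30.

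MFAP4 (ENSSSCG00000036007; chromosome 12, 60141488 to 60144214), a fibrinogen-like protein that binds both elastin and microfibrils, was higher at each later age in both myoid-like and stromal-like cells. Myoid-like cells held 93.5 CPM (86.5 to 101) at 30 days, 185 (169 to 202) at 60 and 870.3 (824 to 919) at 90. Stromal-like cells held 103 CPM (97.5 to 109), 162 (152 to 172), 319 (299 to 340) and 477 (458 to 496). No 2 ages overlapped in either class, and the 90-day level was 9.31-fold (8.47 to 10.2) the 30-day one in myoid-like cells and 4.63-fold (4.33 to 4.96) the 7-day one in stromal-like cells. The class that led changed: myoid-like cells were 1.73-fold below stromal-like cells at 30 days (1.57 to 1.91) and 1.83-fold above them at 90. An MFAP4 UMI was found in 17.5% (16.2 to 18.9), 35.4% (32.2 to 38.7) and 76.6% (73.2 to 79.8) of myoid-like cells, against 0.450% to 1.74% of T or NK-like cells. Within the vascular class the smooth muscle cells held 39.7, 53.0 and 86.5 CPM at 7, 30 and 90 days and the pericyte-like cells 20.4, 11 and 12.8.

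MFAP5 (ENSSSCG00000031712; chromosome 5, 62742520 to 62757522), the second microfibril-associated glycoprotein of the MFAP2 kind, was highest in stromal-like cells from 30 days on, while at 7 days it was scarce and germ-like cells held as much of it (45.9% of its UMIs). Stromal-like cells held 44.7%, 94.2%, 77.5% and 92% of the MFAP5 UMIs of their library in order of age. Their level was 3.02 CPM (2.14 to 4.14) at 7 days, 136 (127 to 145) at 30, 39.0 (32.2 to 46.7) at 60 and 345 (329 to 362) at 90. All 4 intervals were separate, and the order in age was broken by the 60-day library. The 90-day level was 114-fold (83 to 162) the 7-day level. Myoid-like cells held 5 UMIs at 30 days, 0 of 876 cells at 60 and 5 UMIs at 90 (0.704, 0 and 3.36 CPM), which put them 193-fold (82.6 to 597) and 103-fold below stromal-like cells at 30 and 90 days and at least 33.5-fold below at 60. These sizes depend on few UMIs: the log2 ratio of -6.68 at 90 days was -4.74 with no doublets removed, and that of -7.60 at 30 days was -6.83 when cells were classed by their own markers. At 90 days their 3.36 CPM (1.09 to 7.83) overlapped the 3.25 CPM (0.671 to 9.51) of T or NK-like cells. The UMIs were unevenly spread: 34.0% of stromal-like cells (32.0 to 36.1) held an MFAP5 UMI at 90 days, where an even spread of the same UMIs by depth would give 53.4%. The shares at 7, 30 and 60 days were 0.777%, 16% and 4.67%, with 1.09%, 26.1% and 10.5% under an even spread.

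**Figure D1:**
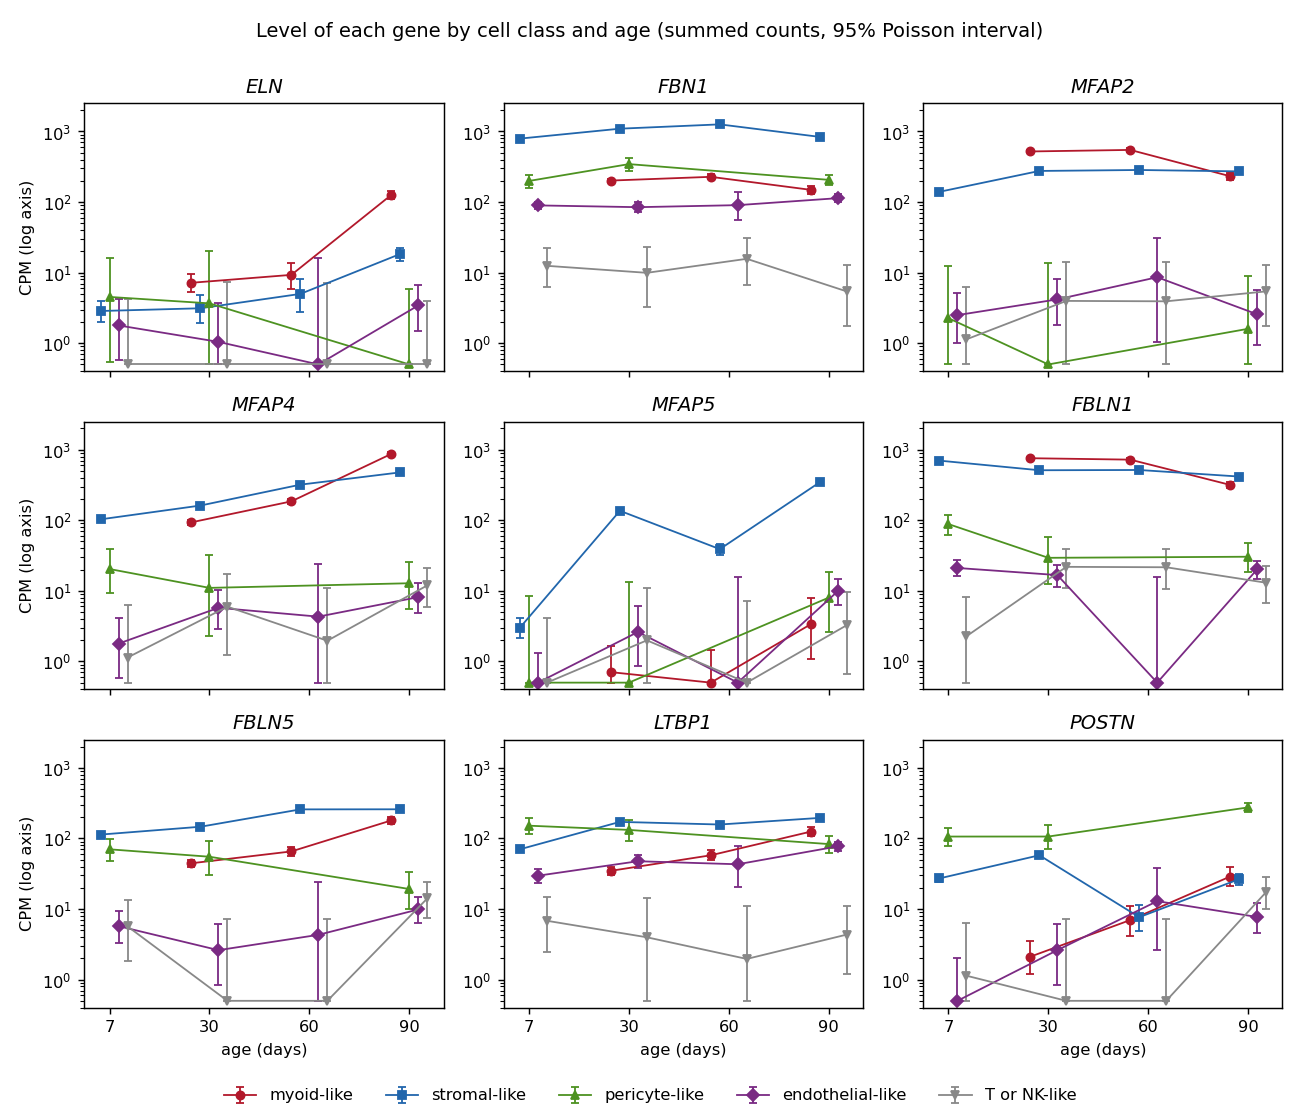
Level of each gene (CPM, log axis, 1 panel per gene) against age in days in myoid-like, stromal-like, pericyte-like (no point at 60 days), endothelial-like and T or NK-like cells; points are the single library of each age, bars are exact Poisson 95% intervals, and levels below 0.5 CPM are drawn at 0.5. ELN in myoid-like cells steps up between 60 days (9.29 CPM) and 90 days (126 CPM), MFAP5 is highest in stromal-like cells from 30 days on, and POSTN is highest in the pericyte-like cells at 7, 30 and 90 days.

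FBLN1 (ENSSSCG00000000010; chromosome 5, 3839498 to 3927178) encodes fibulin-1, a glycoprotein of basement membranes and elastic fibres. Its myoid-like level was lowest in the oldest library. The levels were 757 CPM (736 to 777) at 30 days, 722 (689.8 to 756) at 60 and 317 (289 to 347) at 90, the last 2.39-fold below the first (2.17 to 2.63). Stromal-like cells held 699 CPM (685 to 714), 511 (494 to 528), 515 (490.0 to 542) and 416 (398 to 434). The 7-day library was highest and the 90-day library lowest, at 0.595 of the 7-day level (0.567 to 0.624), which is short of the 2-fold used for calls below but past it with the scaling factors of the TMM method (log2 ratio -1.11). Germ-like cells came after these classes, with 101 CPM (95.1 to 108), 67.8 (63.1 to 72.7), 84.7 (72.9 to 97.8) and 52.8 (49.96 to 55.7), and held 31.8% of the FBLN1 UMIs of the 90-day library. Within the 90-day germ-like cells a cluster of 2100 cells held 68.8 CPM (64.9 to 72.8) and a cluster of 2520 cells 13.9 (11.2 to 17.1), so its level differed between germ clusters of 1 library. In T or NK-like cells FBLN1 stood at 2.27, 21.9, 21.6 and 13 CPM.

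FBLN5 (ENSSSCG00000002444; chromosome 7, 113423629 to 113526412) encodes fibulin-5, which binds tropoelastin and places it on microfibrils. Stromal-like cells led at every age, with 113 CPM (108 to 119), 146 (137 to 156), 258 (240.2 to 277) and 259 (245 to 273). The 60-day and 90-day levels overlapped, and 90 days stood 2.28-fold (2.12 to 2.46) above 7 days, a log2 ratio of 1.19 that was 0.83 with TMM factors. Myoid-like cells held 44.5 CPM (39.7 to 49.7), 65.4 (56.0 to 76.1) and 179.8 (159 to 203), with separate intervals and a 4.04-fold (3.42 to 4.77) difference between 90 and 30 days. Pericyte-like cells went the opposite way, from 70.1 CPM (47.6 to 99.5) at 7 days and 55.0 (30.8 to 90.8) at 30 to 19.2 (9.92 to 33.5) at 90. FBLN5 in T or NK-like cells was at 5.67, 0, 0 and 14.1 CPM (7.5 to 24.1 at 90 days), so the 90-day pericyte-like level overlapped that of T or NK-like cells in its library.

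LTBP1 (ENSSSCG00000008510; chromosome 3, 106300748 to 106724538) encodes a fibrillin-like protein that keeps latent TGF-beta in the matrix. Its leading class differed between the ages. At 7 days pericyte-like cells held 152 CPM (117 to 192) against 70.3 (65.7 to 75.1) in stromal-like cells, and at 90 days 83.2 (62.1 to 109) against 195 (183 to 208). The stromal-like levels between were 172 CPM (162 to 182) at 30 days and 157 (144 to 172) at 60, which overlapped each other. Pericyte-like cells thus led at 7 days and stromal-like cells at 90. In myoid-like cells the level was 34.8 CPM (30.6 to 39.4), 57.7 (48.8 to 67.7) and 125 (108 to 144), higher at each later age without overlap. Endothelial-like cells held 29.6 CPM (23.6 to 36.7) at 7 days and 77.1 (66.2 to 89.2) at 90, a 2.60-fold (1.99 to 3.41) difference. T or NK-like cells were lower, with 1.96 to 6.81 CPM.

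POSTN (ENSSSCG00000009361; chromosome 11, 13225183 to 13258973) encodes periostin, a matricellular protein that binds fibronectin and tenascin and is no structural part of the fibre. Among the cells of the vessel wall it was a transcript of the pericyte-like ones. Pericyte-like cells held 106 CPM (78.1 to 141) at 7 days, 106 (71.2 to 153) at 30 and 275 (236 to 319.6) at 90, while vascular smooth muscle-like cells held 0, 9.64 (1.17 to 34.8) and 14.1 (6.10 to 27.8). The first pair of pericyte-like levels overlapped and the 90-day one was above both. Stromal-like cells held 27.2 CPM (24.4 to 30.2), 57.7 (52.1 to 63.8), 7.66 (4.85 to 11.5) and 26.5 (22.2 to 31.4), with 7 and 90 days alike within their intervals, 30 days above and 60 days below. Myoid-like cells held 2.11 CPM (1.18 to 3.48), 6.97 (4.13 to 11) and 28.9 (20.9 to 38.9).

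Most POSTN UMIs of the oldest library lay elsewhere. Sertoli-like cells, the nurse cells of the tubule, held 9.64% of the POSTN UMIs at 7 days, 16.8% at 30, 54.3% at 60 and 64.4% (62.0 to 66.7) at 90. Because a different cluster made up these cells at each age, the clusters are given by number: 0.912 CPM (0.620 to 1.29) in cluster 1 at 7 days, 3.91 (3.18 to 4.75) in cluster 0 at 30, 10.0 (8.47 to 11.7) in cluster 6 at 60 and 79.4 (74.7 to 84.3) in cluster 11 at 90. Each level was above the one before it. The highest marker score of cluster 11 was that of the Schwann set (0.633), so its Sertoli name is less sure. By their own marker counts 84 of the 1567 Sertoli-like cells of 90 days would be Sertoli, against 2980 of 6869 at 7 days. At 90 days POSTN in T or NK-like cells was 17.3 CPM (9.92 to 28.2). The myoid-like and stromal-like levels of that library overlapped it, and the Sertoli-like and pericyte-like levels did not. In the same library germ-like cells held 6.68 CPM (5.70 to 7.77) and Leydig-like cells 2.74 (0.564 to 7.99), below the T or NK-like level. How much of each level was free RNA was not tested beyond the subtraction. Of the 90-day Sertoli-like cells 40.6% held a POSTN UMI at a median of 7656 UMIs per cell, and 14.3% after thinning to 2000 UMIs, against 2.21% and 3.28% of T or NK-like cells.

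**Figure D2:**
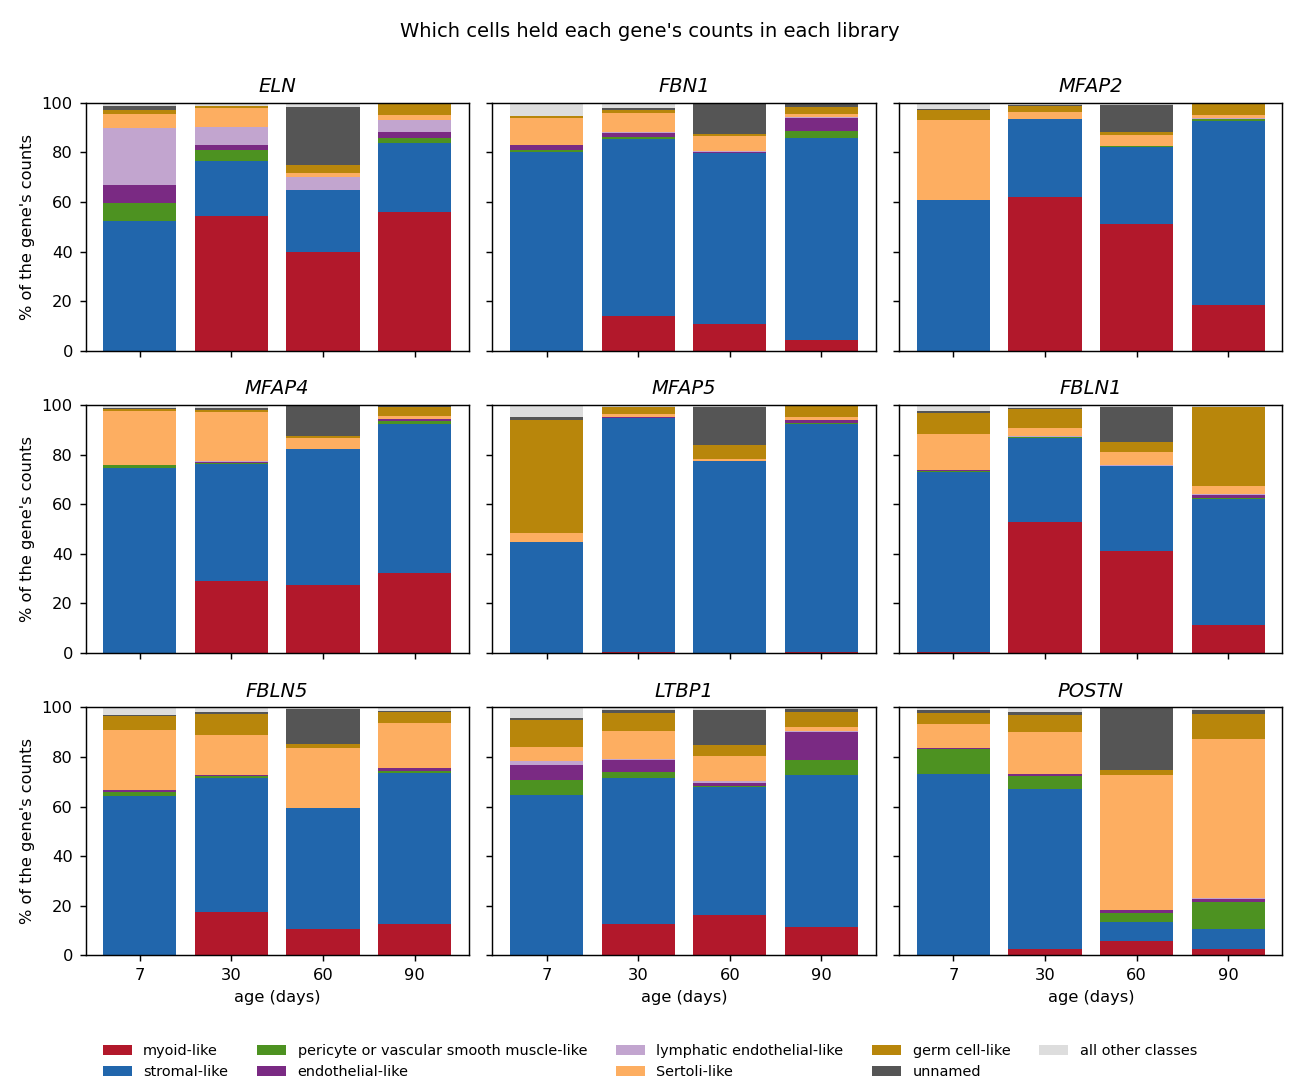
Percent of each gene's UMIs held by each cell class (stacked bars, 0 to 100%), 1 panel per gene and 1 bar per library at 7, 30, 60 and 90 days. Stromal-like cells hold most FBN1 UMIs at all ages, while the Sertoli-like part of POSTN goes from 9.64% at 7 days to 64.4% at 90.

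The ages were next compared across all genes by 1 rule: a gene was called when its CPM differed by at least 2-fold, the exact 95% interval of the ratio left out 1 and the 2 libraries together held at least 10 UMIs. In myoid-like cells at 90 against 30 days, 6 of the 9 genes were called higher, where the background was 24.3% of the 14711 genes measured, and 2 were called lower, where it was 4.98%. The genes called higher were ELN (17.6-fold), POSTN (13.7-fold, 7.44 to 26.5), MFAP4 (9.31-fold), MFAP5, FBLN5 (4.04-fold) and LTBP1 (3.59-fold, 2.95 to 4.36). MFAP5 rests on 5 UMIs against 5 (4.77-fold, 1.10 to 20.7). At 90 days MFAP5 and POSTN overlapped T or NK-like cells, with 3.36 against 3.25 CPM and 28.9 against 17.3 CPM. FBLN1 (2.39-fold) and MFAP2 (2.24-fold) were the 2 called lower. Under the marker gate, which gives each cell to a class by its own marker counts, the POSTN log2 ratio was 2.26 in place of 3.77, and with no doublets removed that of MFAP5 was 4.29 in place of 2.25. FBN1, at 0.739 of its 30-day level (0.639 to 0.852), was not called. The median log2 ratio was 2.02 over the 9 genes and 0.38 over all genes measured.

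With classes from clusters, most of that difference lay between 60 and 90 days, while under the marker gate this did not hold for every gene. At 60 against 30 days, POSTN alone of the 8 genes with 10 UMIs was called higher (3.30-fold, 1.57 to 7.04; background 7.83% of 14170 genes) and none was called lower (2.45%), while MFAP4 lay just under the threshold at 1.98-fold (1.76 to 2.23). Under the marker gate these changed places, with POSTN at a log2 ratio of 0.68 and MFAP4 called at 1.35. FBLN5 stood at 0.995 there, more than in its later step under the same gate. At 90 against 60 days 5 of 8 were called higher (19.4% of 13570 genes) and 2 lower (7.25%). The 5 were ELN (13.6-fold), MFAP4 (4.70-fold), POSTN (4.14-fold), FBLN5 (2.75-fold) and LTBP1 (2.16-fold), and the 2 were MFAP2 (2.36-fold) and FBLN1 (2.28-fold). POSTN at 90 days overlapped T or NK-like cells, as given above. The marker gate gave smaller log2 ratios for ELN (2.32 in place of 3.76), MFAP4 (1.40 in place of 2.23) and FBLN5 (0.72 in place of 1.46, no longer called), and LTBP1 was not called with no doublets removed (0.81 in place of 1.11) or with TMM factors (0.92). The 60-day and 30-day cells fell in 1 cluster and the 90-day cells in another, so this step and the change of cluster coincide.

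In stromal-like cells at 90 against 7 days, 5 of 9 were called higher (background 31.2% of 17193 genes) and none lower (5.73%). MFAP5 (114-fold), ELN (6.43-fold), MFAP4 (4.63-fold), LTBP1 (2.78-fold, 2.54 to 3.05) and FBLN5 (2.28-fold) were higher. MFAP2 lay just under the threshold at 1.95-fold (1.81 to 2.09), and POSTN (0.976, 0.793 to 1.19) and FBN1 (1.06) differed little. The median log2 ratio was 1.19 over the 9 genes and 0.51 over all genes. The steps differed by gene: MFAP5 (45.1-fold), LTBP1 (2.44-fold) and POSTN (2.13-fold) were called higher at 30 against 7 days (5.90% of 15651 genes), with none lower (3.63%), although LTBP1 and POSTN were not called under the marker gate (log2 ratios 0.84 and 0.66 in place of 1.29 and 1.09). At 60 against 30 days none was called higher (8.94% of 14394 genes) and MFAP5 (3.50-fold) and POSTN (7.54-fold) were called lower (3.59%). At 90 against 60 days MFAP5 (8.86-fold), ELN (3.68-fold) and POSTN (3.46-fold) were called higher (18.7% of 15890 genes) and none lower (4.19%). The 90-day POSTN level overlapped that of T or NK-like cells here too. FBLN5 and MFAP4 reached their stromal difference in smaller steps, none of which was called. Over the interval shared with myoid-like cells, 90 against 30 days, ELN (5.88-fold, 3.63 to 9.95), MFAP4 (2.95-fold, 2.75 to 3.17) and MFAP5 (2.53-fold, 2.34 to 2.75) were called higher (25.9% of 16457 genes) and POSTN (2.18-fold, 1.79 to 2.67) lower (4.39%). The POSTN call, a log2 ratio of -1.12, was lost under the marker gate (-0.54), with a stricter cell filter (-0.99) and with no doublets removed (-0.91).

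**Figure D3:**
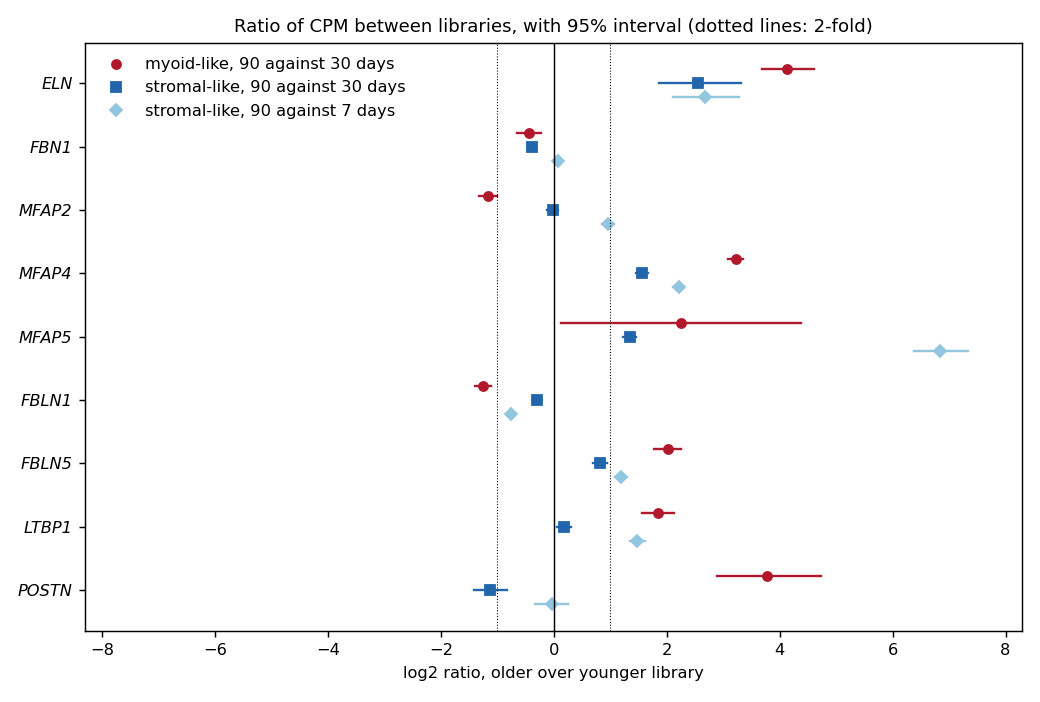
Log2 ratio of CPM between ages for each gene: myoid-like cells at 90 against 30 days, stromal-like cells at 90 against 30 days and stromal-like cells at 90 against 7 days; bars are exact 95% intervals and dotted lines mark 2-fold. ELN, MFAP4 and MFAP5 lie above the upper line in all 3 comparisons, the last on 5 UMIs against 5 in myoid-like cells, whereas FBLN1 and MFAP2 lie below the lower line in myoid-like cells alone.

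Pericyte or vascular smooth muscle-like cells gave another picture at 90 against 7 days, with 3 of 9 called higher (background 19.2% of 11716 genes) and 2 lower (4.49%). POSTN was 2.15-fold higher (1.55 to 3.03), whereas FBLN5 was 3.46-fold (1.87 to 6.62) and FBLN1 2.61-fold (1.61 to 4.30) lower. The other 2 calls rest on few UMIs: MFAP2 had 13 against 1 (7.30-fold, 1.10 to 310.1) and MFAP5 10 against 0. The latter passed the rule because its ratio to 0 has no upper end, while a floor of 3 UMIs gives a bound of at least 1.87-fold, short of 2-fold. The shares of the class shifted as well, from 126 pericyte-like and 55 smooth muscle-like cells at 7 days to 329 and 233 at 90, while the pericyte-like levels given above leave the smooth muscle-like cells out. With TMM factors POSTN was 1 of the calls lost (log2 ratio 0.94 in place of 1.10), and with cells thinned to 2000 UMIs neither FBLN5 (-0.99 in place of -1.79) nor FBLN1 (-0.23 in place of -1.39) was called. The median log2 ratio was -0.29 over the 9 genes against 0.28 over all genes. In endothelial-like cells 4 of 9 were called higher (23.5% of 13285 genes) and none lower (5.03%). Only LTBP1 among the 4 stood well above T or NK-like cells. MFAP4 (8.14 CPM at 90 days), MFAP5 (9.85) and POSTN (7.71) overlapped T or NK-like cells of the same library (11.9, 3.25 and 17.3).

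The myoid-like and stromal-like cells were then set against each other within each library, which leaves library differences out. At 30 days ELN was called higher in myoid-like cells (2.30-fold, 1.36 to 4.02), 1 of 9 where the background was 4.76% of 14944 genes. Of the others, 5 were called lower (8.69%): MFAP5, POSTN (27.3-fold, 16.4 to 49.3), FBN1, LTBP1 (4.93-fold) and FBLN5 (3.29-fold). The POSTN log2 ratio of -4.77 was -2.88 under the marker gate. At 60 days none was called higher (4.51% of 13449 genes) and MFAP5, FBN1, FBLN5 (3.94-fold) and LTBP1 (2.73-fold) were called lower (8.37%), whereas under the marker gate ELN was called higher (log2 ratio 2.18 in place of 0.90) and FBLN5 was not called (-0.86 in place of -1.98). At 90 days ELN was 6.86-fold higher (5.32 to 8.89), again 1 of 9 (3.98% of 15604 genes), and only FBN1 and MFAP5 were lower (6.99%). FBLN5 and LTBP1 had moved from 0.304 and 0.203 of the stromal-like level at 30 days to 0.695 and 0.639 at 90. POSTN had moved from 0.037 to 1.09, though it overlapped T or NK-like cells in both classes of the last library. FBLN1 and MFAP2 moved across equality, from 1.48 and 1.89 to 0.761 and 0.854. FBN1 kept its ratio. Both classes were mostly other clusters at 90 than at 30 days, so these shifts coincide with a change of library and of cluster.

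**Figure D4:**
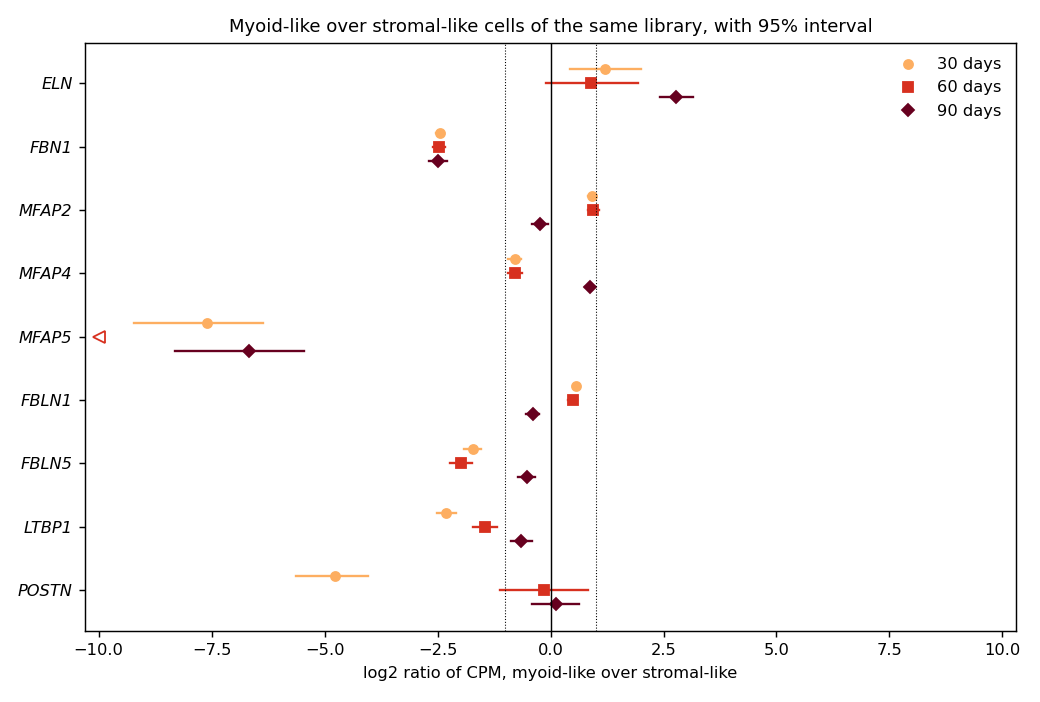
Log2 ratio of CPM in myoid-like over stromal-like cells of the same library at 30, 60 and 90 days, with exact 95% intervals; the open triangle marks MFAP5 at 60 days, where myoid-like cells held no UMI. FBN1 stays at one ratio, ELN is above 0 in all 3 libraries with an interval that reaches 0 at 60 days, and MFAP4 crosses from below 0 to above it.

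Against all other cells of its library, the stromal-like class was called higher for 9, 9, 8 and 8 of the 9 genes in order of age (background 8.90%, 7.75%, 10.8% and 10.9% of genes). The exception at 60 and 90 days was POSTN, at 0.803 and 0.818 of the other cells. The ELN calls were lost at all 4 ages when means over cells replaced sums (log2 ratios 0.01, 0.10, 0.94 and 0.25). Against all other cells, the myoid-like class was called higher for 4, 5 and 6 of the 9 at 30, 60 and 90 days (6.21%, 7.79% and 6.93%) and lower for 2, 1 and 1 (27.5%, 16.6% and 10.2%). The LTBP1 call at 60 days was lost with cells thinned to 2000 UMIs (log2 ratio 0.41 in place of 1.17).

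The stromal-like cells of a library were not uniform for these genes. They were clustered again on their own, again without the 9 genes and companions, a step added after the data had been seen, and the result is a description only. At 90 days a group of 166 cells led by ECM1, CLEC3B, CD248, TNXB and PI16 held 1338 CPM of MFAP5 (1229 to 1453), an MFAP5 UMI in 91.0% of its cells, 1211 of MFAP4 (1108 to 1321) and 1679 of FBN1 (1557 to 1807). A group of 231 cells led by ACTA2, MYH11 and CYP26B1 held 47.6 CPM of MFAP5 (31.4 to 69.2), 546 of FBN1 (487 to 611) and 699.6 of FBLN1 (632 to 772), the highest FBLN1 level of the 5 groups. MFAP5 and FBLN1 were therefore highest in different groups. ACTA2, MYH11 and CYP26B1 were also among the 10 leading genes of the 90-day myoid-like cluster. By their own marker counts 46 stromal-like cells of 90 days would be myoid, 914 germ and 877 stromal. Whether the 231-cell group holds the 46 was not tested. Of the rest, 638 cells led by CXCL14 and C7 held 324 CPM of LTBP1 (296 to 354) and 353 of FBLN5 (324 to 384), and 737 cells led by KRT18 and SEMA3G held 427 of MFAP5 (397 to 459). The last 362 cells, with a median of 1450.5 UMIs, were led by TPPP2, ODF1, SMCP and PRM1, the last a protamine of spermatids. PRM1 stood at 654 CPM there and at 253 to 292 in the other 4 groups.

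The youngest library held groups with a similar contrast. At 7 days 712 stromal-like cells led by ITGBL1, ACTA2 and COL15A1 held 861 CPM of FBLN1 (829 to 895), 25.8 of MFAP4, 1.93 of POSTN and no MFAP5, while 647 cells led by SFRP1, CXCL14 and COL14A1 held 282 of MFAP4, 82.2 of POSTN and 7.60 of MFAP5. ITGBL1 and COL15A1 were also among the 10 leading genes of the cluster of the younger myoid-like cells. At 30 days MFAP5 was at 469 CPM in 409 cells led by CCN3, GPC3 and SEMA3G, against 15.3 to 183 in the other groups except for 63 cells at 450.3. Among myoid-like cells, ELN at 30 days was 10.8 CPM (6.82 to 16.1) in 962 cells led by MYH11 and 3.67 (1.59 to 7.24) in 980 cells led by IGFBP5 and AGT, whose intervals meet. MFAP4 in the same pair was 132 CPM (117 to 148) against 71.2 (60.4 to 83.3), which do not meet.

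**Figure D5:**
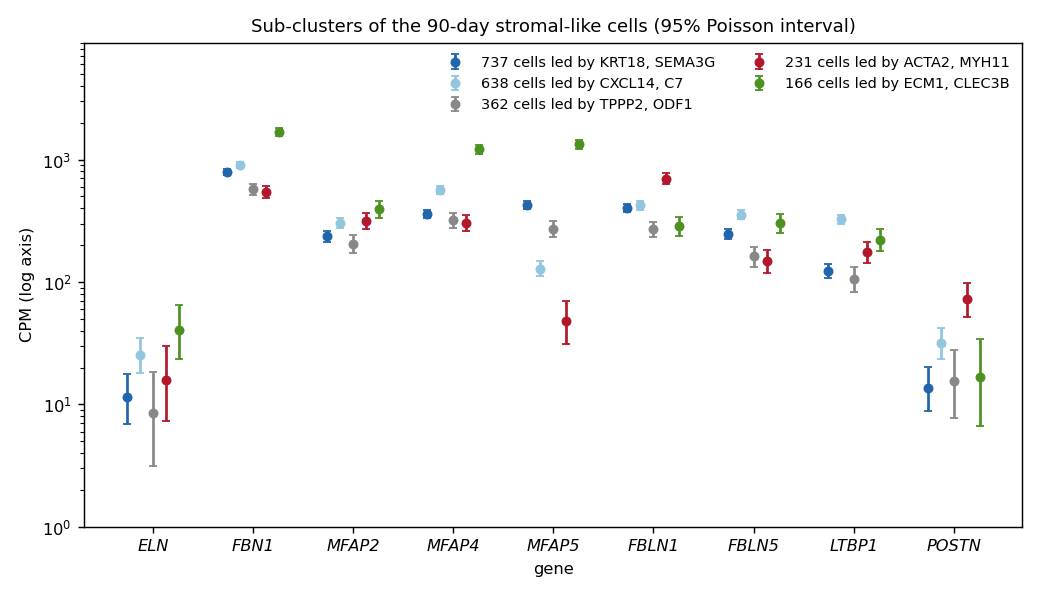
Level of each gene (CPM, log axis) in 5 groups of 90-day stromal-like cells found by clustering them on their own; points are sums over the cells of a group, bars are exact Poisson 95% intervals. The 166-cell group led by ECM1 and CLEC3B is highest for MFAP5 (1338 CPM), MFAP4 and FBN1, and the 231-cell group led by ACTA2 and MYH11 for FBLN1 (699.6 CPM).

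Companion genes of the fibre, 47 of 50 listed having a feature, were read by the same rule. In myoid-like cells at 90 against 30 days 8 of 39 measured were called higher, where the background was 24.3%, and 5 lower, where it was 4.98%, with a median log2 ratio of 0.28 against 0.38 for all genes. LTBP2, a latent TGF-beta binding protein that associates with elastic fibres, was at 22.8 against 2.11 CPM (10.8-fold, 5.73 to 21.3). LOX, the lysyl oxidase that cross-links elastin, was at 209 against 33.2 CPM (6.30-fold, 5.30 to 7.5), and TIMP3, an inhibitor of matrix proteases, at 762 against 161 CPM (4.73-fold). Lower were VCAN, the large proteoglycan versican (32.9 against 196 CPM, 5.96-fold), MMP2, a gelatinase (131 against 462 CPM, 3.53-fold), and EMILIN3, with 0 against 59 UMIs (at least 4.13-fold with 3 UMIs as floor, while the exact interval of the log2 ratio reached -1.70). By group, against the same background shares, 4 of 6 measured members of the microfibril-associated ADAMTS family were called higher and none lower, 3 of 5 emilins and proteoglycans were called lower and none higher, and none of 5 other fibulins was called.

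In stromal-like cells at 90 against 7 days 8 of 42 companions were called higher, fewer for their number than the background of 31.2%, and 5 lower (5.73%), with a median log2 ratio of 0.30 against 0.51 for all genes. EFEMP1, fibulin-3, was at 58.5 against 2.22 CPM (26.3-fold, 17.8 to 40.3), and ADAMTSL5 and ADAMTSL4, microfibril-binding ADAMTS-like proteins, at 21.0 against 0.397 (52.8-fold) and 22.3 against 3.02 CPM (7.40-fold). TIMP3 was at 886 against 105 CPM (8.47-fold). EMILIN1, an elastin microfibril interface protein, was 5.03-fold lower (82.8 against 417 CPM) and THBS1, thrombospondin-1, 3.93-fold lower (41.7 against 164). LOX was not called here. In pericyte or vascular smooth muscle-like cells 1 of 34 was called higher, TGFB3 (2.17-fold; background 19.2%), and 7 lower (4.49%), with a median log2 ratio of -0.41 against 0.28 for all genes. They included the cross-linking enzymes LOX (3.98-fold) and LOXL1 (5.05-fold), EMILIN1 (2.50-fold), FN1, fibronectin (2.52-fold), and THBS1 (2.09-fold). FBLN5, the fibulin of elastin assembly, was lower in the same cells.

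The genes with the most similar pattern were found by Pearson's r of log2(CPM + 10) over 41 sums, each of 1 class in 1 library, among 11501 genes; sums of 1 library share its depth and its free RNA. ELN was nearest to ITGA9 (0.799), DPYSL3 (0.778) and PDLIM1 (0.773), and its best value was the lowest of the 9. FBN1 was nearest to NID2 (0.928), GPX7 (0.924) and COL5A2 (0.923). MFAP2 was near to GLI1 (0.948) and DCN (0.920), and FBLN1 was nearest to CHRDL1 (0.937), GLI2 (0.935) and GLI1 (0.920), so GLI1 was near to both. MFAP4 was nearest to ADGRD1 (0.948), ISLR (0.946) and GLT8D2 (0.918), and FBLN5 to LOX (0.919), ISLR (0.914) and COL5A1 (0.901). MFAP5 stood apart with EFEMP1 (0.912), CPXM2 (0.880) and WFIKKN2 (0.850). LTBP1 was nearest to EBF1 (0.918), COL5A2 (0.890) and C1QTNF2 (0.890), and POSTN to GDF11 (0.841), GALNT16 (0.840) and ISYNA1 (0.833). Among the 9 themselves the highest values were those of FBLN5 with MFAP4 (0.913) and of FBLN1 with MFAP2 (0.882), and the lowest that of ELN with MFAP5 (0.201).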

How the data were processed

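The deposited files hold raw counts of UMIs per feature and barcode for 4 libraries, not normalized by the authors. Per the submitters' processing notes the tools were Scanpy 1.7.1, bcl2fastq and Cell Ranger (5.0.1 per the file headers), with build Sscrofa11.1. The 4 files list 31908 features each. Gene spans come from a RefSeq table of Sscrofa11.1, matched by symbol for 9 of 9 genes. No cell annotation was used here.

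Barcodes with at least 1000 UMIs, at least 500 genes and at most 15% of UMIs from 13 mitochondrial genes were kept. Doublets were removed with Scrublet in Scanpy 1.11.5, at its automatic threshold. Libraries were clustered together without integration (2000 variable genes, 30 components, 15 neighbours, leidenalg 0.10.2, resolution 1), leaving out 56 genes, the 9 and their companions. Clusters were named from marker sets. Naming as myoid-like needed at least 0.65 of that set's markers above 2-fold in the cluster, and as vascular at least 0.5. These thresholds were set after seeing the data. No class of B lineage cells was formed, so T or NK-like cells alone served as background. UMIs of each class were added up within a library. Levels are given for at least 50 cells, comparisons of ages for at least 100. Ratios have exact conditional binomial 95% intervals (SciPy 1.17.1), and a fold against 0 uses 3 counts as floor. Cells are not replicates, and with 1 library per age no p-value is given.

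The genes and lists were chosen with earlier results of these data known. All 9 genes are described, companion genes were named when called in a main comparison, up to 6 per class by the interval bound farthest from no change, and 3 genes of most similar pattern are named per gene among those with at least 500 UMIs, except that 1 for MFAP2 is not reported here. On simulated counts for 14724, 17186 and 11690 genes (myoid-like, stromal-like, pericyte or vascular smooth muscle-like), the intervals held the set fold for 96.5%, 94.5% and 96.5% of 200 changed genes, all 4-fold changes were called, and 1.09%, 0.712% and 1.48% of unchanged genes were called. Those counts carried Poisson error alone, as the intervals assume, and changed genes were drawn among the better counted ones. The shares therefore check the calculation only. Variation between animals or libraries was not simulated, so they give no rate of false calls between ages. Alternatives covered doublets, cell filters, clustering, marker gating, thinning, TMM factors (edgeR 4.0.16), free RNA and call thresholds. Sub-clusters, and leaving out the dividing stromal cluster, were added after seeing the data.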

Additional observations from a re-analysis of the deposited data

Results flagged for a closer look

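POSTN differed in direction between classes at 90 against 30 days, with a log2 ratio of 3.77 in myoid-like cells (2.11 against 28.9 CPM at 30 and 90 days) and -1.12 in stromal-like cells (57.7 against 26.5 CPM). It is given because the only library of each age moved one way in the first class and the opposite way in the second, and the difference between the classes was not tested. T or NK-like cells of the same libraries held 0 and 17.3 CPM, and the 90-day levels of both classes overlapped theirs. The stromal-like call was lost under the marker gate (-0.54), with a stricter cell filter and with no doublets removed.

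FBLN5 likewise differed in direction at 90 against 7 days, with -1.79 in pericyte or vascular smooth muscle-like cells (49.3 CPM at 7 days, 14.3 at 90) and 1.19 in stromal-like cells (113 and 259 CPM). This difference was not tested either. T or NK-like cells held 5.67 and 14.1 CPM, so the 90-day level of the vascular class overlapped theirs.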

How the results depend on the processing

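No paired analysis was possible because each age has a single library. Over 17 alternatives and 20 comparisons, 772 of 836 counts of genes called stayed within 1.5 times the reported count, and 103 of 104 called ratios of the 9 genes (those against 0 UMIs left out) kept their direction in every alternative that gave a value. Companions were recounted in 5 of these comparisons, and TMM factors were not applied against all other cells. The exception was MFAP2 in pericyte or vascular smooth muscle-like cells at 90 against 7 days, reversed at a log2 ratio of -1.41 when cells were classed by their own markers, in place of 2.87 from 13 UMIs against 1. Of 198 shares of cells with a UMI, 67 lay inside the interval of the unthinned share after thinning. TMM factors shifted all log2 ratios by -0.40 in myoid-like, -0.36 in stromal-like and -0.17 in pericyte or vascular smooth muscle-like cells. Causes were not tested beyond what each setting changes by construction.

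In myoid-like cells at 90 against 30 days, the 2 of the 9 genes called lower became 0 at a threshold of 3-fold. Companions called higher (8) became 4 with no doublets removed, 3 with TMM factors, 13 at 1.5-fold and 3 at 3-fold, and those called lower (5) became 10 with TMM factors and 8 at 1.5-fold. In stromal-like cells at 90 against 7 days, the 5 called higher became 3 at 3-fold, and the 0 called lower became 1 with no doublets removed, with TMM factors and at 1.5-fold, each time FBLN1. Companions called higher (8) became 17 at 1.5-fold and 5 at 3-fold.

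In pericyte or vascular smooth muscle-like cells, the 3 called higher became 1 with TMM factors, with 10% free RNA subtracted and with a minimum of 50 counts. The 2 called lower became 1 with only the expected doublets removed and at 3-fold, 4 with the marker gate and 0 with cells thinned to 2000 UMIs. Companions called higher (1) became 3 with the marker gate, 2 with means over cells, 0 with TMM factors and 0 at 3-fold. Those called lower (7) became 12 with no doublets removed, 13 with the marker gate, 4 with a minimum of 50 counts, 12 at 1.5-fold and 4 at 3-fold.

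For myoid-like against stromal-like cells at 30 days, the 1 called higher became 2 with TMM factors, at 1.5-fold and without the dividing cluster, an alternative added after seeing the data, and 0 at 3-fold. Companions called higher (3) became 5 with the marker gate and 6 at 1.5-fold, and those called lower (11) became 17 at 1.5-fold. At 90 days the 1 called higher became 2 at 1.5-fold and the 15 companions called lower became 8 at 3-fold.

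For the other comparisons of the 9 genes, at 60 against 30 days in myoid-like cells the 1 called higher became 2 with the stricter cell filter, with cells thinned to 2000 UMIs and with 10% free RNA subtracted, 0 with a minimum of 50 counts and 3 at 1.5-fold. At 90 against 60 days there, the 5 called higher became 3 and the 2 lower became 0 at 3-fold. In stromal-like cells the 3 called higher at 30 against 7 days became 5 at 1.5-fold and 1 at 3-fold. The 0 called higher at 60 against 30 days became 1 with the stricter cell filter, 2 with thinning and 2 at 1.5-fold, and the 0 called lower at 90 against 60 days became 1 at 1.5-fold. At 90 against 30 days the 3 called higher became 1 at 3-fold, and the 1 called lower became 0 with no doublets removed, with the stricter cell filter, with the marker gate and at 3-fold. The 4 called higher in endothelial-like cells became 1 with a minimum of 50 counts. The 0 called higher in myoid-like against stromal-like cells at 60 days became 1 with only the expected doublets removed, with the marker gate, with TMM factors and at 1.5-fold. Against all other cells, the 0 called lower in stromal-like cells at 60 days became 1 with means over cells, and in myoid-like cells the 2 called lower at 30 days became 1 with the marker gate and the 1 at 60 days became 2 with means over cells.

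Age is 1 library each, so differences between ages hold for these libraries. ELN, with 60 to 335 UMIs per library, and MFAP5 and MFAP2 in vascular cells limit precision most.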

Other observations

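At 7 days, when stromal-like cells held 38 of the 85 MFAP5 UMIs of the library, germ-like cells held 39, or 45.9% (35.0 to 57.0, Clopper-Pearson). Their level was 3.87 CPM (2.75 to 5.29) at 7 days and 2.25 (1.47 to 3.30), 4.14 (1.89 to 7.86) and 3.20 (2.54 to 3.98) at 30, 60 and 90 days. Within the 7-day germ-like cells a cluster of 279 cells held 6.33 CPM (4.10 to 9.34) and a cluster of 247 cells 2.28 (1.25 to 3.83). T or NK-like cells of that library held none, which allows up to 3.40 CPM by 3 UMIs and 4.19 CPM by the upper end of the exact interval, and the latter covers the germ-like level.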
